A study of Mus musculus with 4 samples.

Results

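Gingival fibroblasts were taken from single-cell RNA libraries of mouse gingiva as the cell barcodes that met a rule on 8 matrix and receptor genes and 10 endothelial genes. A barcode was a fibroblast-rule barcode when it had at least 200 genes, at most 20% mitochondrial unique molecular identifiers (UMIs, each counting 1 captured RNA molecule), UMIs of at least 3 of the 8 gate genes Col1a1, Col1a2, Col3a1, Dcn, Lum, Pdgfra, Dpt and Postn, and UMIs of fewer than 3 of 10 endothelial genes. Of 7134 barcodes that passed the filters on genes and mitochondrial UMIs, 161 (2.26%) met it. The rule therefore chose the members by the measured levels of the gate genes, and those levels are given here as a description.

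The study asked about metformin, a biguanide drug that lowers blood glucose, in gingival disease. Gingiva was cut from the maxilla, digested with collagenase II and DNase and strained, and 4 libraries were made from the dissociated cells. By their labels the groups were healthy, metformin treatment, disease, and disease treated with metformin (disease plus metformin below). Each group had 1 library. The way disease was brought about, the metformin dose and duration, and the strain, age and number of mice per library are not given in the sources used here. With 1 library per group no difference could be set against the spread between replicates. Intervals are therefore exact 95% intervals that cover counting error only, and no p-values are given.

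Fibroblasts of the gingiva build and renew the collagen-rich connective tissue under the epithelium. They secrete fibrillar collagens and small leucine-rich proteoglycans such as decorin, the proteases and inhibitors that turn matrix over, and chemokines that draw leukocytes. In periodontal disease this tissue is inflamed and its collagen is lost.

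After filtering, the libraries held 1307 (healthy), 2477 (metformin), 1693 (disease) and 1657 (disease plus metformin) barcodes, with 12507787, 22333858, 14151700 and 13025479 UMIs in the deposited matrices. The lowest barcode total was 500 UMIs in each library. Between 0 and 4 barcode sequences were shared by any pair of libraries, and 0 of these were fibroblast-rule barcodes in both libraries of the pair. Levels are UMIs per 1000000 UMIs summed over the barcodes of a set (CPM).

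The 161 barcodes were split by the number of gate genes detected. In 106 of them at least 5 gate genes were detected, and gate-gene UMIs made up a median of 2.98% of the barcode. In the other 55, with 3 or 4 gate genes, the median was 0.242%. The ranges overlapped, reaching up to 7.82% in the 55 and down to 0.611% in the 106. At the edge of the rule, 233 barcodes outside it had 2 gate genes and a median of 0.136%, 43 inside it had exactly 3 and a median of 0.207%, 12 had 4 and 0.485%, and 9 had 5 and 2.63%. The median total was 7671.5 UMIs in the 106 and 4854 UMIs in the 55, and the largest barcode of the 55 held 229293 UMIs against 22916 in the 106.

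Markers of other cell types lay mostly in the 55. At least 5 markers of keratinocytes, Schwann cells, mural cells or gland cells were detected in 43 of those 55 barcodes: keratinocyte markers in 22, Schwann markers in 16, gland markers in 12 and mural markers in 8, with some barcodes in more than 1 class. In the gate-rich 106, 10 barcodes reached 5 markers of any of these classes (7 gland, 2 keratinocyte, 1 Schwann and 1 mural). They were spread unevenly: 4 of 16 healthy, 4 of 39 metformin, 0 of 45 disease and 2 of 6 disease plus metformin barcodes. The fibroblast label thus matched the markers of most of the 106 and went against those of most of the 55. Low members with keratinocyte markers numbered 2, 5, 12 and 3 in the healthy, metformin, disease and disease plus metformin libraries. They held 32.3%, 45.7%, 52.8% and 74.4% of all fibroblast-rule UMIs. Most of this lay in few barcodes: those over 50000 UMIs numbered 1, 2, 3 and 1 and held 29.3%, 42.6%, 31.8% and 68.4%. Sums over all 161 barcodes therefore carried much epithelial RNA, and most levels and ratios are given for the 106 gate-rich barcodes, a subset chosen after the data were seen, with the value for all members where stated. The rule for ratios asked for at least 20 members per library, which healthy gingiva met with all 22; the 16 gate-rich healthy barcodes are under that number, so gate-rich ratios against healthy rest on 16 barcodes. No doublet caller was run, and doublets were not tested as a source of the mixed barcodes.

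**Figure D1:**
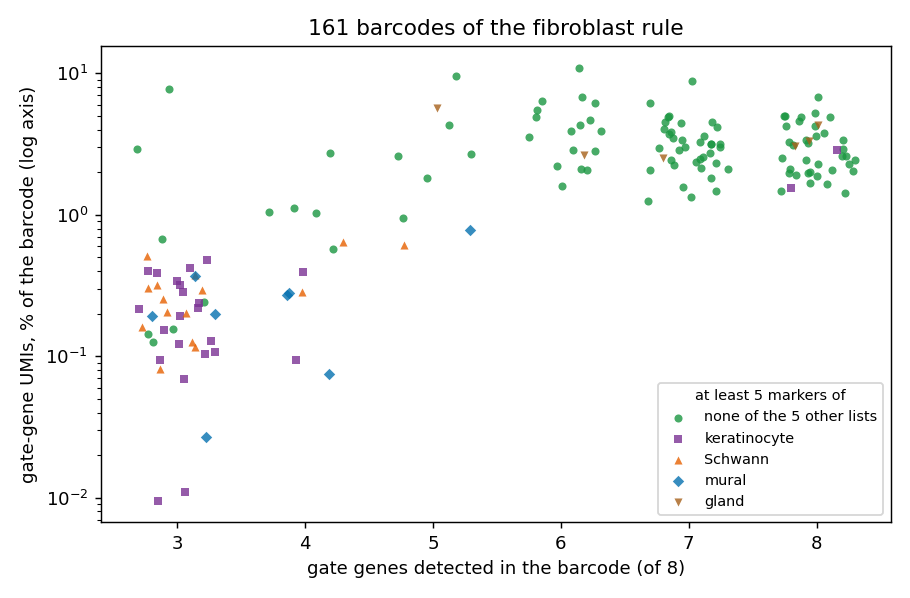
Gate genes detected (x axis, of 8; points spread sideways) and the share of a barcode's UMIs that came from gate genes (y axis, percent, log scale) for the 161 fibroblast-rule barcodes. Colour and shape show at least 5 detected markers of another class, with keratinocyte taking precedence where a barcode met several; the barcodes with 3 or 4 gate genes had a median gate share of 0.242%, against 2.98% in those with 5 or more.

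The share of fibroblast-rule barcodes differed between libraries. It was 1.68% (95% interval 1.06 to 2.54; 22 barcodes) in healthy gingiva, 2.26% (1.71 to 2.93; 56) with metformin, 4.19% (3.29 to 5.26; 71) in disease and 0.724% (0.375 to 1.26; 12) in disease plus metformin. Disease stood above healthy by 1.32 on the log2 scale (0.61 to 2.08), and disease plus metformin stood below disease, at a log2 ratio of -2.53 (-3.55 to -1.64). Metformin against healthy gave 0.43 (-0.31 to 1.21), an interval that includes 0.

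The gate-rich barcodes showed the same order. Their shares were 1.22% (0.701 to 1.98; 16 barcodes) in healthy, 1.57% (1.12 to 2.15; 39) in metformin, 2.66% (1.95 to 3.54; 45) in disease and 0.362% (0.133 to 0.786; 6) in disease plus metformin. The share of endothelial barcodes, taken by an analogous rule, was likewise highest in disease (4.31%) and lowest in disease plus metformin (1.39%), with 2.30% in healthy and 1.78% in metformin. These are shares of recovered barcodes, and how dissociation and capture differed between libraries was not tested.

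**Figure D2:**
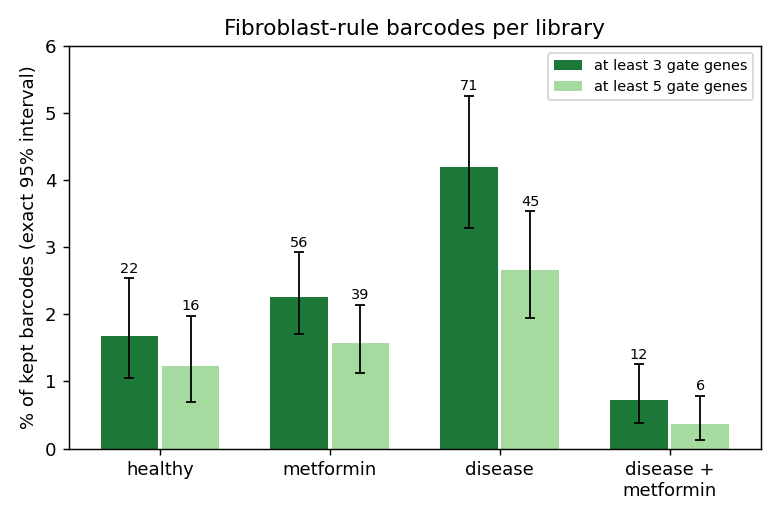
Share of kept barcodes (y axis, percent) that met the fibroblast rule, per library, for at least 3 gate genes (dark bars) and at least 5 (light bars); lines are exact 95% binomial intervals and numbers are barcodes. Disease was highest in both sets (4.19% and 2.66%) and disease plus metformin lowest (0.724% and 0.362%).

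Genes that the rule did not use gave the 106 gate-rich barcodes the profile of matrix-forming fibroblasts. Serpinf1, which encodes the secreted factor PEDF, had a UMI in 99 of the 106, at 1417 CPM in healthy, 1462 in metformin, 1362 in disease and 767 in disease plus metformin. Mfap5, an elastic microfibril protein, was found in 88 of the 106, at 1232, 1061, 1025 and 990 CPM in the same order. The adventitial fibroblast marker Pi16 was found in 66, at 565, 555, 675 and 667 CPM. In the remaining kept barcodes of each library these stood at no more than 2.43, 1.67 and 1.25 CPM. Among the genes with the highest ratio over remaining barcodes were also Sfrp2 and Sfrp4 (secreted Wnt modulators), Cd248 (endosialin), Col14a1, Inmt and Angptl1. The mesenchymal transcription factors Prrx1 (547, 580, 515 and 808 CPM) and Twist1 (222, 268, 328 and 141 CPM) were also present in all 4 libraries. Because the barcodes were chosen by co-expressed genes, this contrast with other barcodes describes them and tests nothing.

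Markers of other cell types were also summed in the gate-rich set. Of 20 leukocyte markers, 6 had any UMI, and the list summed to 25.5 CPM against 1018 CPM in the remaining kept barcodes; Ptprc, Lyz2 and C1qa were at 0. The Schwann list summed to 532 CPM against 155 in the remaining barcodes, the mineralized tissue list to 255 against 74.9, the lymphatic list to 101 against 38.9 and the mural list to 430 against 476; the part of such cells in the results below was not tested. Endothelial genes were limited by the rule itself. A few single barcodes stood out. Keratinocyte markers summed to 139 CPM in healthy, 1176 in metformin, 188 in disease and 141 in disease plus metformin, and 1 metformin barcode held 79.1% of its library's sum. In disease, 1 gate-rich barcode had 54.3% of its UMIs from the haemoglobin list, or 99.6% of that list's UMIs in the library. In healthy gingiva, 1 barcode held 198 of the 219 UMIs of the mural list, including all 115 of Acta2 and all 115 of Tagln.

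Not all gate-rich barcodes carried the same genes. Pi16 and Clec3b, both markers of the adventitial state, were detected together in 59 barcodes, out of 66 with Pi16 and 83 with Clec3b. Mfap5 was found in 64 of the 66 barcodes with Pi16. Thbs4, a thrombospondin of tendon and ligament, was found in 29 barcodes, and 13 of those (44.8%) had Pi16, against 62.3% of all 106. Mfap4, a microfibril-associated glycoprotein, and Dpp4, a marker of progenitor-type fibroblasts in other tissues, were found in 33 and 23 barcodes and together in 1. Of the 33 barcodes with Mfap4, 29 had Inmt. Inmt (62 barcodes) and the matrix glycoprotein Tnc (8 barcodes) were never found together. The median totals of these subsets lay between 7569 and 9068 UMIs for the genes named here, and the pairs were picked after the values were seen.

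Among the gate genes, Dcn gave the highest level. In the gate-rich barcodes Dcn (decorin, which binds collagen fibrils) stood at 18704 CPM in healthy, 15032 in metformin, 16839 in disease and 18198 in disease plus metformin. Dcn was also the least specific gate gene: with each barcode thinned to 1000 UMIs, it was found in 23.8% to 31.0% of keratinocyte-rule barcodes, against 93.8% to 100% of gate-rich barcodes. Unthinned, the keratinocyte shares were 31.4% to 39.9% at a median of 1726 UMIs. Col3a1, by contrast, was found in 0.14% to 0.25% of thinned keratinocyte-rule barcodes.

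The fibrillar collagens used by the rule are given as a description. Col3a1 stood at 6114, 5786 and 6017 CPM, Col1a2 at 3177, 3059 and 3414 CPM, and Col1a1 at 2798, 2162 and 2329 CPM. Col1a1 and Col1a2 encode the chains of type I collagen, the main fibre of gingiva, and Col3a1 the chain of type III collagen. Summed over the 8 fibrillar collagen genes, disease against healthy gave a log2 ratio of -0.06 (-0.14 to 0.03) and metformin against healthy -0.14 (-0.22 to -0.05). This sum includes Col3a1, Col1a2 and Col1a1, which helped to choose the barcodes, so nothing is read from its ratios. Over all 161 barcodes the per-gene differences were larger, as at Col3a1 (log2 ratio -0.49, -0.62 to -0.37, in disease against healthy). That ratio too is a description, since Col3a1 is a gate gene. The share of UMIs in keratinocyte-marked members was 32.3% in healthy and 52.8% in disease, and its part in these differences was not tested.

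In disease plus metformin few barcodes were available. The 6 gate-rich barcodes there had 2888 CPM of Col3a1, 1474 CPM of Col1a2 and 767 CPM of Col1a1. Lum, another leucine-rich proteoglycan, was at 3413 CPM, above 2196, 2024 and 1664 CPM in healthy, metformin and disease. A single barcode held 45.5% of the Col3a1 UMIs and 50.9% of the Lum UMIs in this library. With 12 members, of which 6 were gate-rich, it was under the minimum of 20 members for gene ratios, and its values are given as levels only.

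**Figure D3:**
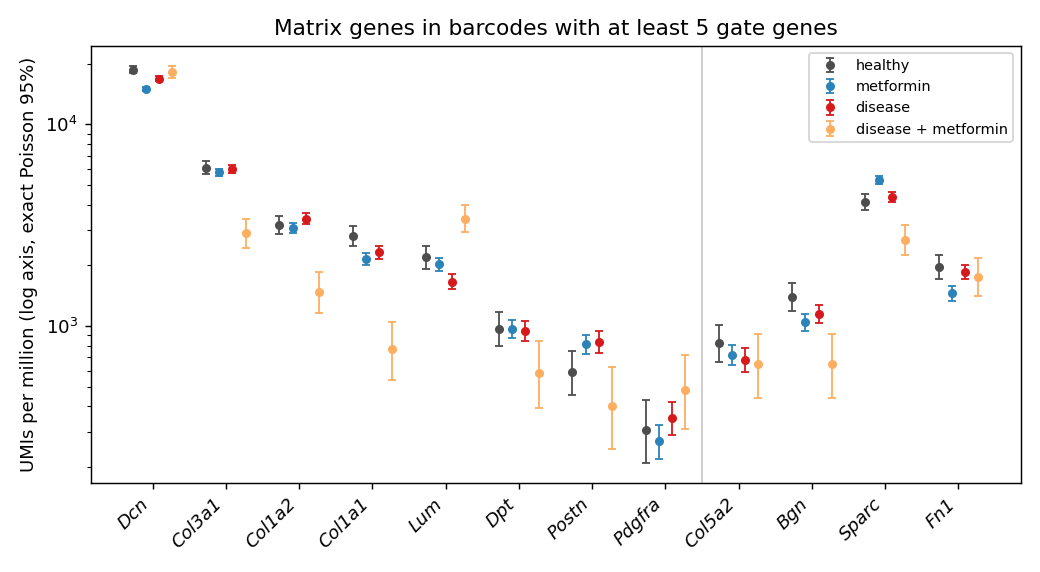
UMIs per 1000000 (y axis, log scale) of the 8 gate genes (left of the line) and 4 other matrix genes in the barcodes with at least 5 gate genes, per library; points are sums over barcodes and lines exact 95% Poisson intervals. Col3a1 stood at 6114 in healthy, 5786 in metformin, 6017 in disease and 2888 in disease plus metformin.

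Levels of the remaining gate genes in healthy, metformin and disease are likewise a description. Dpt, which binds decorin, stood at 973, 966 and 951 CPM. Postn (periostin, a matricellular protein of the periodontal ligament) stood at 593, 813 and 837 CPM. Pdgfra, the receptor for platelet-derived growth factor, stood at 306, 268 and 350 CPM. The collagen chaperone Serpinh1 was at 574, 866 and 869 CPM, at log2 ratios against healthy of 0.60 (0.19 to 1.02) in disease and 0.59 (0.20 to 1.01) with metformin. Of the matrix glycoproteins, Sparc was at 4132, 5305 and 4363 CPM and Fn1 at 1964, 1454 and 1855 CPM.

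Matrix lists were set against all genes. In disease against healthy, 3673 genes had at least 20 UMIs over both gate-rich sets; 7.41% were at least 2-fold higher, 4.44% at least 2-fold lower, and the median log2 ratio was 0.02. Against this, 0 of 6 measured fibrillar collagens passed 2-fold in either direction (median -0.14), 0 of 8 leucine-rich proteoglycans did (median -0.25), and 2 of 28 glycoproteins were higher (Mfap4 and Smoc2) and 1 lower (Tnc). Of the 6 collagens 3, and of the 8 proteoglycans Dcn and Lum, are gate genes that chose the barcodes, so nothing is read from those counts. Of 17 proteases and inhibitors, 0 were higher and 1 lower (Serpine2). Mmp2 and Mmp14, which cut collagen, and their inhibitors Timp2 and Timp3 stayed within 2-fold, as did the stromelysin gene Mmp3 (log2 ratio -0.71, -1.13 to -0.28). Over all members, with 8.11% of 6609 genes higher and 7.58% lower and a median of -0.10, the same proteases gave 0 higher and 6 lower of 17 (median -0.62).

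In the gate-rich barcodes, though not over all members, a list far from this background was that of immediate-early genes, which encode transcription factors and feedback regulators that cells make within minutes of growth factor, stress or dissociation signals. In disease against healthy, 12 of 19 measured were at least 2-fold higher and 0 lower in the gate-rich barcodes, with a median of 1.20, against 7.41% of genes higher. Fos, an AP-1 subunit, stood at 926 CPM in healthy, 1436 in metformin, 2947 in disease and 1030 in disease plus metformin. Jun, its partner, stood at 565, 555, 1295 and 767 CPM in that order. For both genes the disease library was highest and the other 3 lay closer together. The log2 ratio of disease against healthy was 1.67 (1.37 to 1.98) for Fos and 1.20 (0.81 to 1.61) for Jun. It was 1.29 (0.84 to 1.78) for Junb and 1.18 (0.73 to 1.66) for the zinc finger factor Egr1. Over all members Jun was at 0.15 (-0.13 to 0.44), Junb at 0.16 (-0.13 to 0.47) and Egr1 at 0.48 (0.14 to 0.84). A single barcode held 50% of the Junb UMIs of healthy gingiva.

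Several further members of the list were also higher in the gate-rich barcodes. Ier2 was at a log2 ratio of 1.34 (0.60 to 2.16), Zfp36, which destabilises inflammatory mRNAs, at 1.24 (0.54 to 2.02), and Socs3, a brake on cytokine signalling, at 1.37 (0.30 to 2.64). The antiproliferative gene Btg2 had 2 UMIs in healthy and 67 in disease, a log2 ratio of 3.52 (1.62 to 6.60). Jund, which is expressed more constantly, was at 0.48 (0.17 to 0.81). Over all 161 barcodes, 2 of 22 measured genes were higher, 1 was lower and the median was 0.32; there Fos was at 0.68 (0.47 to 0.90) and Atf3 at -0.58 (-0.98 to -0.16), against 1.22 (0.26 to 2.35) for Atf3 in the gate-rich set. The same list had a median of -0.24 in keratinocyte-rule barcodes and -0.04 in endothelial-rule barcodes. Whether these values differ between cell types was not tested.

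The list was also measured barcode by barcode. It made up a median of 0.538% of a gate-rich barcode's UMIs in healthy, 0.434% in metformin, 0.526% in disease and 0.188% in disease plus metformin. The highest barcode reached 1.47%, 2.88%, 5.79% and 1.65%, and 10 of 45 disease barcodes lay above the highest of the 16 healthy ones, a maximum over fewer barcodes. Above 1% lay 2 of 16 healthy, 9 of 39 metformin, 16 of 45 disease and 1 of 6 disease plus metformin barcodes. Over all members the medians were 0.480%, 0.302%, 0.374% and 0.188%, the highest healthy barcode reached 11.8%, 0 of 71 disease barcodes lay above it, and 4 of 22, 11 of 56, 23 of 71 and 3 of 12 lay above 1%. Summed over the list in the gate-rich barcodes, the log2 ratio of disease against healthy was 0.96 (0.84 to 1.09), and 1.00 (0.87 to 1.14) without the richest barcode of each library. Of the 70 barcodes with Fos, 62 (88.6%) had Jun, 63 (90.0%) had Junb and 57 (81.4%) had Egr1. Of all 106, 69.8% had Jun, 67.0% had Junb and 59.4% had Egr1. The median total was 8179.5 UMIs in barcodes with Fos and 7671.5 in all 106, and the part of depth was not tested. All 4 libraries went through the enzymatic digestion named above, and its part in these values was not tested.

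**Figure D4:**
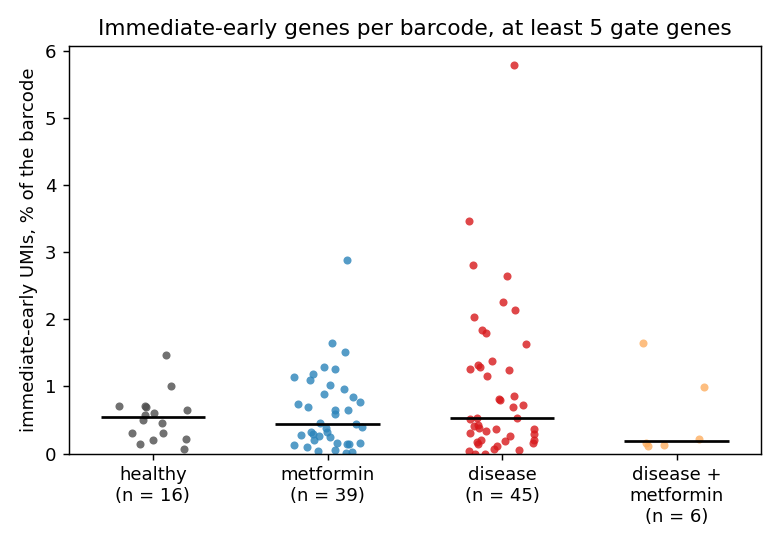
Share of a barcode's UMIs from the immediate-early list (y axis, percent) for each barcode with at least 5 gate genes, by library (x axis, with the number of barcodes; points spread sideways); bars are medians. The medians were 0.538% in healthy and 0.526% in disease, and 10 disease barcodes lay above the highest healthy barcode (1.47%).

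The promoters of these genes are shown because these genes stood higher in the gate-rich disease barcodes. Upstream sequence was taken from RefSeq (GRCm38.p6) for 10 of the 12 genes that were at least 2-fold higher, and searched on both strands for TGACG (on the other strand CGTCA), the core of the cyclic AMP response element bound by CREB and ATF factors. It was found in the 200 bases before the start of 4 of the 10 (40.0%), against 4267 of 27025 promoters (15.8%). The 180 bases before the start of those 4 genes follow, 5′ to 3′ on the gene's strand, with the motif in capitals.
Fos, chr12:85473710-85473889, plus strand: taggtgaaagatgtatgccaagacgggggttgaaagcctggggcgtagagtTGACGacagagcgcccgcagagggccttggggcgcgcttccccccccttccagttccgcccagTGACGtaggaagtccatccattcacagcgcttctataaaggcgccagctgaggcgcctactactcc
Junb, chr8:84978749-84978928, minus strand: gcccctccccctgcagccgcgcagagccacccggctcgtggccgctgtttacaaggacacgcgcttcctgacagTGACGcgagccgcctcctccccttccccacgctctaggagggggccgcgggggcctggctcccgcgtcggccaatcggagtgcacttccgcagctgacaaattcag
Btg2, chr1:134079156-134079335, minus strand: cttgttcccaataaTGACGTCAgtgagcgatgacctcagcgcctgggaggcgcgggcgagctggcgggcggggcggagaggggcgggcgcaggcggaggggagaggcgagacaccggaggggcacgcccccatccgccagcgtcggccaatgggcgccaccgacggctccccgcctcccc
Atf3, chr1:191183334-191183513, minus strand: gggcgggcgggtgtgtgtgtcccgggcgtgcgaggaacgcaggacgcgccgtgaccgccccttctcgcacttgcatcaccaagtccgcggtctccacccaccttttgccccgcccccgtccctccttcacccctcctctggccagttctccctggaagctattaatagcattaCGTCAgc
The first base of the motif lay at -129 and -66 from the start in Fos, at -106 in Junb and at -7 in Atf3. Btg2 had overlapping matches at -166 and -163, which form the full palindrome. A match is a stretch of letters and does not show that a factor was bound.

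Among chemokines, Ccl11 (eotaxin, which attracts eosinophils) was highest in healthy gingiva. In the gate-rich barcodes it stood at 1186 CPM in healthy, 562 in metformin, 455 in disease and 566 in disease plus metformin, and it was found in 11 of 16, 24 of 39, 27 of 45 and 4 of 6 barcodes. A single healthy barcode held 32.8% of the UMIs. The log2 ratio against healthy was -1.38 (-1.74 to -1.03) in disease and -1.08 (-1.40 to -0.75) with metformin. Both comparisons share the healthy library. The monocyte attractant Ccl2 had 37 UMIs in healthy, all in 1 barcode, so its log2 ratio of -3.05 (-4.09 to -2.11) in disease is the value of that barcode. The neutrophil attractant Cxcl1 had 1 UMI in healthy and 83 in disease, of which a single barcode held 67.5%. Cxcl12, which binds CXCR4, was at 315, 348 and 226 CPM in healthy, metformin and disease. In disease plus metformin, with 6 gate-rich barcodes, Cxcl12 stood at 2020 CPM. Il6 had 7 UMIs in 2 disease barcodes and 0 in the other libraries, and the osteoclast factor Tnfsf11 (RANKL) had 0 UMIs in the gate-rich barcodes, which allows up to 27.8 CPM in healthy, 7.67 in metformin, 9.55 in disease and 60.6 in disease plus metformin.

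Other secreted factors differed in both directions. Igfbp4 and Igfbp5, which bind insulin-like growth factors, were lower in disease than in healthy, at log2 ratios of -0.83 (-1.02 to -0.63) and -1.0 (-1.18 to -0.82). In healthy, a single barcode held 48.8% of the Igfbp4 UMIs, and without the members that held 5 markers of another class Igfbp4 was at 0.073. Igfbp6 was level, at -0.05 (-0.22 to 0.12). Complement C3 was at 435, 309, 668 and 909 CPM in healthy, metformin, disease and disease plus metformin. Its log2 ratio of disease against healthy was 0.62 (0.16 to 1.11). Apod, a secreted lipid-binding protein, stood at 296, 463, 1473 and 444 CPM in the 4 libraries and was found in 10 of 16, 29 of 39, 32 of 45 and 4 of 6 barcodes. Its log2 ratio of disease against healthy was 2.31 (1.8 to 2.88), and 2.01 (1.5 to 2.56) over all members.

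The genes that led the disease comparison by the interval bound nearest 0 in the gate-rich barcodes were Fos, Jun and Egr1, described above, with Mfap4, Aqp1 and Cdc26. Mfap4 stood at 185, 698, 649 and 1414 CPM, with 20 UMIs in healthy that all came from 1 barcode. The water channel Aqp1 was at 55.6, 130, 223 and 121 CPM, a log2 ratio of 2.00 (0.81 to 3.50) in disease. In endothelial-rule barcodes Aqp1 stood at 772 CPM in healthy and 1092 in disease, and in keratinocyte-rule barcodes at 0.422 and 0. Cdc26, a subunit of the anaphase-promoting complex, had 1 UMI in healthy and 29 in disease (3.32, 0.72 to 8.67). Lowest were H2-T23, Vit, Ank2, Tmem100, Bicc1 and Lrrc58, at log2 ratios between -1.93 and -0.76. H2-T23 encodes the non-classical class I molecule Qa-1 and stood at 195, 69.0, 50.9 and 80.8 CPM, a log2 ratio of -1.93 (-2.97 to -0.93). In keratinocyte-rule barcodes H2-T23 stood at 41.4 CPM in healthy and 24.6 in disease, and in endothelial-rule barcodes at 136 and 143.

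Over all 161 barcodes, the disease comparison was led by Tmtc2, Apod, Rnf167, Scd2, Mfap4 and Ripk1. Tmtc2 had 1 UMI in healthy and 128 in disease, a log2 ratio of 4.97 (2.47 to 10.29). Rnf167, a ubiquitin ligase gene, had 0 and 32 UMIs, so that it was at least 2.61-fold higher when the 0 was set to 3 counts for the library. Ripk1, a kinase of cell death signalling, had 1 and 37 UMIs (3.18, 0.61 to 8.52). Lowest were Sparcl1, H2-T23, Frmd6, Slco3a1, Tmem100 and Bicc1, at log2 ratios between -1.69 and -1.23. Sparcl1, a secreted relative of Sparc, was at -1.58 (-2.0 to -1.16) over all members and -0.89 (-1.34 to -0.43) in the gate-rich barcodes. For metformin against healthy over all members, Tmtc2, Adm, Golga2, Scd2, Plcl1 and Ripk1 were highest and Clmp, Heg1, H2-K1, Rit1, Pcdh7 and Tshz3 lowest, the last 6 at log2 ratios between -1.87 and -1.24. Golga2, a Golgi matrix protein, had 0 UMIs in healthy and 33 with metformin and was at least 2.37-fold higher by the same bound. Healthy fibroblast-rule barcodes were the fewest of these 3 libraries (22), and many of the highest genes had 2 UMIs or fewer there.

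**Figure D5:**
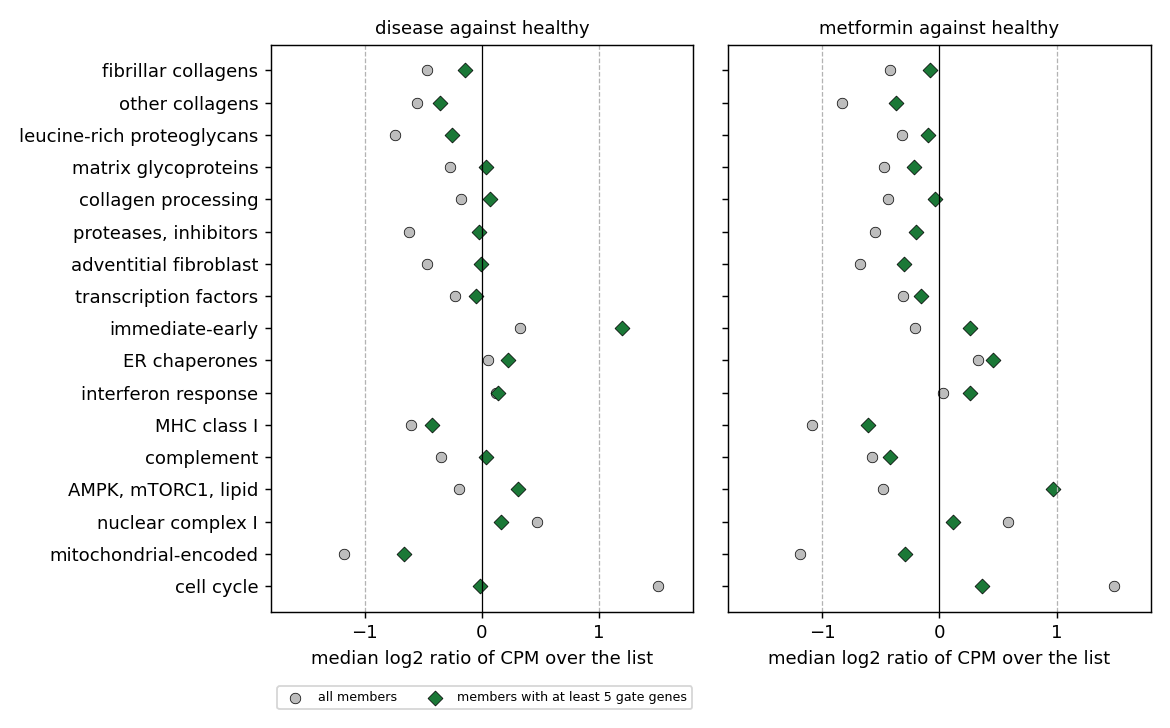
Median log2 ratio of CPM (x axis) over the measured genes of 17 lists (y axis), in disease against healthy (left) and metformin against healthy (right), for all members (circles) and members with at least 5 gate genes (diamonds); dashed lines mark 2-fold. The immediate-early list stood at 1.20 in the gate-rich disease comparison, and the cell cycle list at 1.5 over all members but -0.01 in the gate-rich barcodes.

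Several lists differed between all members and gate-rich barcodes. Of the cell cycle genes, 14 of 18 measured were at least 2-fold higher in disease over all members, with a median of 1.5. In the gate-rich barcodes 3 were measurable, 0 passed 2-fold and the median was -0.01. The histone H2afz, for example, was at 1.25 (0.87 to 1.66) over all members and 0.20 (-0.66 to 1.13) in the gate-rich set. Mitochondrially encoded genes had 10 of 12 lower over all members (median -1.17) and 1 of 12 lower in the gate-rich set (median -0.67, mt-Atp8). The contractile genes had a median of -1.18 in the gate-rich set, and 4 of 6 were lower. That list rested on the 1 healthy barcode with all Acta2 and Tagln UMIs, since the log2 ratio of the summed list was -1.78 with it and 0.49 (0.12 to 0.87) without the richest barcode of each library.

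With metformin in healthy gingiva, 9.4% of 4267 genes were at least 2-fold higher and 5.62% lower in the gate-rich barcodes, with a median log2 ratio of 0.04. Over all members 8.77% of 6923 genes were higher and 9.59% lower. Endoplasmic reticulum chaperones, which fold collagen and other secreted proteins, had 4 of 21 higher (Creld2, Dnajb9, Hspa5 and Sdf2l1) and 0 lower, with a median of 0.46. Hspa5 (BiP) stood at 519 CPM in healthy, 1150 in metformin, 726 in disease and 384 in disease plus metformin, a log2 ratio of 1.15 (0.75 to 1.58). It was found in 38 of 39 metformin and 11 of 16 healthy barcodes. Hspa5 also stood higher with metformin in keratinocyte-rule barcodes, at 313 and 444 CPM, and in endothelial-rule barcodes, at 339 and 388 CPM. Hsp90b1, a chaperone of the same compartment, was at 0.70 (0.32 to 1.09).

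Metformin is known to activate the kinase AMPK, whose activity was not measured here. Of the AMPK, mTORC1 and lipid synthesis genes, 3 of 8 measured were higher with metformin and 0 lower, with a median of 0.97. Those 3 were Hmgcs1 of the sterol pathway, the desaturase Scd2, and Sesn3. Scd2 had 5 UMIs in healthy and 66 in metformin, a log2 ratio of 1.86 (0.57 to 3.53), and it stood at 46.3, 169, 115 and 20.2 CPM in the 4 libraries. Hmgcs1 had 2 and 34 UMIs (2.23, 0.27 to 5.33). Over all members Hmgcs1 was at 0.02 (-0.82 to 0.97). Sesn3 had 53 UMIs over the gate-rich barcodes of the 4 libraries. Its levels over all members ranged from 43.0 to 67.5 CPM across the 4 libraries, a 1.57-fold range. The other 5 measured were within 2-fold.

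The genes highest with metformin by the bound nearest 0 were Tmtc2, Adm, Ghr, Il11ra1, Cdc26 and Ubb. Ubb, a polyubiquitin gene, stood at 343 CPM in healthy, 841 in metformin, 340 in disease and 990 in disease plus metformin, so that both metformin libraries were high. Its log2 ratio of metformin against healthy was 1.29 (0.80 to 1.83). Both metformin libraries were also above the other 2 outside the fibroblasts: Ubb stood at 286, 717, 304 and 533 CPM in keratinocyte-rule barcodes and at 314, 697, 408 and 811 CPM in endothelial-rule barcodes. Il11ra1, the interleukin-11 receptor chain, stood at 213, 608, 293 and 162 CPM, a log2 ratio of 1.51 (0.89 to 2.20), and was found in 34 of 39 metformin and 12 of 16 healthy barcodes. The growth hormone receptor Ghr had 4 UMIs in healthy and 73 in metformin (2.33, 0.91 to 4.25). The vasodilator peptide Adm had 2 and 70 (3.27, 1.36 to 6.35). Tmtc2, a membrane protein of the endoplasmic reticulum, had 0 UMIs in the gate-rich barcodes of healthy and of disease plus metformin, 60 in metformin and 90 in disease. Set against 3 counts in the healthy library, it was at least 5.52-fold higher in metformin and at least 10.3-fold higher in disease.

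Lowest with metformin were Arl15, Acyp2, Rere, Heg1, H2-K1 and Pdlim5. Heg1, a transmembrane receptor, stood at 324, 128, 366 and 202 CPM, a log2 ratio of -1.34 (-2.0 to -0.68) with metformin. The classical class I gene H2-K1 stood at 463, 210, 286 and 626 CPM, at -1.14 (-1.67 to -0.61). The class I list had 0 of 6 higher and 2 lower (H2-K1 and H2-T23), with a median of -0.61; its light chain B2m was at 0.36 (-0.16 to 0.91). In keratinocyte-rule barcodes H2-K1 stood at 244 and 189 CPM in healthy and metformin, and in endothelial-rule barcodes at 416 and 405.

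The tendon and ligament list had 3 of 8 measured genes higher with metformin (Fmod, Thbs4 and Tnn), 0 lower and a median of 0.57. These rested on few barcodes. Fmod, a collagen-binding proteoglycan, was found in 3 of 39 metformin barcodes and Thbs4 in 12 of 39. Thbs4 stood at 139, 511, 156 and 20.2 CPM in the 4 libraries, a log2 ratio of 1.88 (1.12 to 2.74), 80.0% of the healthy UMIs came from 1 barcode, and without the members that held 3 markers of another class the ratio was -0.49 over 5 healthy barcodes. Immediate-early genes had 3 of 20 higher and 3 lower (Klf2, Klf4 and Nr4a1) with metformin, with a median of 0.26; Fos was at 0.63 (0.32 to 0.95). Mt1, a metallothionein that binds zinc and copper, stood at 343, 785, 780 and 990 CPM, at log2 ratios of 1.19 (0.70 to 1.73) with metformin and 1.19 (0.68 to 1.73) in disease, comparisons that share the healthy library. In keratinocyte-rule barcodes Mt1 stood at 1777, 2549.5, 2334 and 1730 CPM.

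Matrix and adventitial genes differed in both directions with metformin. Of 9 leucine-rich proteoglycans 2 were higher (Fmod and Omd), and of 27 glycoproteins 1 was higher (Mfap4) and 3 were lower (Efemp1, Eln and Tnxb). Col6a1 and Col6a2, chains of the beaded type VI collagen, were at -0.67 (-1.05 to -0.28) and -0.81 (-1.19 to -0.42), and Col14a1, which binds to fibril surfaces, at -0.88 (-1.26 to -0.49). Clec3b was at 0.66 (0.36 to 0.96) and Ly6a, the surface antigen Sca-1, at -0.56 (-0.76 to -0.36). Gsn, an actin-severing protein, stood at 20436, 18292, 19700 and 17693 CPM in the 4 libraries.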

How the data were processed

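Single-cell RNA of mouse gingiva was analysed in 4 libraries. The deposited matrices hold raw UMI counts per gene and barcode, made by the authors with bcl2fastq and Cell Ranger 7.0.1 on mm10, per the submitters' processing notes. No count was changed. Symbols came from the matrices' feature lists. Counts were summed over barcodes per library with Python 3.11.15, numpy 2.4.6 and scipy 1.17.1, and expressed per 1000000 UMIs (CPM). Shares have Clopper-Pearson intervals, levels Poisson intervals and ratios conditional binomial intervals, all 95%, for counting error only; UMIs correct for copying, not for variation between mice. The ratio step was tested on simulated Poisson counts. These had no clustering of UMIs in single barcodes, so that test does not cover such clustering. Ratios needed at least 20 members per library, counted over all members (the gate-rich healthy subset has 16), and 20 UMIs over both; counts of 0 entered bounds as 3.

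Members and lists were chosen with earlier results of these data known. Genes were named by list (up to 4 with most UMIs), by the 6 highest and 6 lowest interval bounds nearest 0 among genes with at least 30 UMIs, UMIs in at least 5 members, no barcode over 20% of them in the higher library and a level there no lower than over all barcodes (leaving out unnamed, sex-linked, ribosomal, mitochondrial, T cell receptor, immunoglobulin and haemoglobin genes), by specificity (15 genes) or by role. Genes named beside list counts were chosen after their values were seen. Keratinocyte-rule barcodes had at least 3 of 10 keratinocyte genes, and endothelial-rule barcodes at least 3 of the 10 endothelial genes, each with fewer than 3 gate genes. Thinning to 1000 UMIs left out shallower barcodes: 0 gate-rich and 315, 608, 344 and 279 keratinocyte-rule barcodes in healthy, metformin, disease and disease plus metformin. Ratios with disease plus metformin were not computed (12 members). Doublets were not removed.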

Additional observations from a re-analysis of the deposited data

Results flagged for a closer look

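With metformin, the share of fibroblast-rule barcodes was higher in healthy gingiva (log2 ratio 0.43) and lower in diseased gingiva (log2 ratio -2.53), so the 2 directions were opposite. Each rests on 1 library a group, the interval of the first includes 0 (-0.31 to 1.21) except without members holding 3 markers of another class, where it was 1.46 (0.052 to 3.19) over 5 healthy and 26 metformin barcodes, and the difference between them was not tested.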

How the results depend on the processing

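No paired analysis was possible because each group had 1 library. The alternatives that required 5 gate genes, or left out members with at least 5 markers of another class, were added after seeing the data.

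The share of fibroblast-rule barcodes depended on the gate. Shares in healthy, metformin, disease and disease plus metformin were 0.383%, 1.05%, 2.19% and 0.0604% without members holding 3 markers of another class. The log2 ratios of shares were then 2.51 (disease against healthy), 1.46 (metformin against healthy, 0.052 to 3.19), -5.18 (disease plus metformin against disease) and -4.12 (disease plus metformin against metformin, -1.64 otherwise). With at least 500 genes the first 3 shares were 2.95%, 3.71% and 6.87%. In disease the share was 2.89% with 4 gate genes, 2.66% with 5 and 3.01% without members holding 5 foreign markers. In metformin the last 2 of these gave 1.57% and 1.49%, and in disease plus metformin 0.362% each. With both conditions together the 4 shares were 0.918%, 1.41%, 2.66% and 0.241%. No other alternative moved a share beyond its interval, and no share ratio changed direction.

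Counts of genes at least 2-fold apart depended on the gate, on thinning and on the UMI minimum. The number of genes tested changed with them, so it is given beside each count. Disease against healthy gave 536 higher and 501 lower of 6609 genes tested. These became 292 and 177 of 3894 with 4 gate genes, and 272 and 163 of 3673 with 5. They were 352 and 196 of 3698 without members holding 5 foreign markers, and 320 and 198 of 3457 with both conditions. Thinning to 1000 UMIs gave 87 and 43 of 668. At 50 UMIs they were 178 and 124 of 3213, and at 1 UMI 941 and 1431 of 11176. The lower count was also 763 of 6358 at 10% mitochondrial UMIs and 230 of 2492 without members holding 3 foreign markers. Metformin against healthy gave 607 and 664 of 6923. These became 401 and 240 of 4267 with 5 gate genes. Without members holding 3 foreign markers they were 340 and 208 of 2293, and without those holding 5, 389 and 243 of 3778. Thinning gave 64 and 34 of 537. At 50 UMIs they were 204 and 213 of 3462, and at 1 UMI 985 and 1458 of 11525. With both conditions the lower count was 216 of 3701.

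Among results at least 2-fold apart over all members (for genes, with an interval that excludes 0), 24 values under the alternatives had the opposite direction; smaller differences, such as Atf3 in disease, are not in that count. In disease against healthy these were the cell cycle list (-0.014 with 5 gate genes, -0.011 without members holding 5 foreign markers, -0.068 with both), H2afz (-0.011 and -0.068 in the last 2), Igfbp4 (0.073 and 0.040 in those, and 0.52 without members holding 3 foreign markers), Lrrc58 and Serpine2 (1.04 and 1.57 in the latter), Vit (1.14 after thinning) and Ccl2 (0.054 without its richest barcode). In metformin against healthy, leaving out members holding 3 foreign markers gave 0.10 for the mitochondrial list, 0.35 for Atf3, 0.37 for Col14a1, 0.78 for Eln, 0.30 for Sfrp4, -0.49 for Thbs4 and 0.0075 for Tnxb; with 5 markers as the limit, Atf3 was 0.31 and Sfrp4 1.19. Sfrp4 was 1.07 with both conditions and 0.57 without its richest barcode, and Vit was 0.68 after thinning. The cause was not tested. Gene ratios with disease plus metformin were not run, since 12 members fell under the minimum of 20.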
